A study of Mus musculus with 8 samples.

Results

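The IP3 receptor and metabotropic glutamate receptor 1 (mGluR1) pathway was followed in H3K9ac peak lists of mouse cerebellum through 8 genes: Itpr1, Itpr2, Itpr3, Homer3, Plcb3, Plcb4, Car8 and Gnaq. They are 8 of 21887 protein-coding genes placed on mm10. They were taken from a fixed list of pathway names and not by a value, but with earlier results of these data known. Every peak that overlapped one of these genes or lay within 5 kb of it was collected, which gave 40 of the 52676 peaks in the lists. Of these, 25 were gene-end peaks, which touched the 1 kb on either side of a gene's annotated ends, 13 were internal peaks, and 2 lay in the flanks only.

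H3K9ac, acetylation of histone H3 at lysine 9, marks active promoters. It was measured by chromatin immunoprecipitation and sequencing in 4 libraries from heterozygous 266Q knock-in mice, a model of spinocerebellar ataxia type 7 with polyglutamine-expanded ataxin-7, and in 4 libraries from wild type littermates. All mice were C57BL/6 and aged 9 weeks, and the knock-in mice were symptomatic at that age. The tissue was cerebellum with no cell type sorted, and nothing in the labels ties a library to 1 animal. The tests therefore took libraries as their units, and differences between libraries may be technical.

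In Purkinje cells, glutamate released by parallel fibres activates mGluR1. The receptor acts through the G protein subunit Gαq, which Gnaq encodes, on phospholipase C beta, encoded by Plcb3 and Plcb4, which cleaves a membrane lipid to diacylglycerol and inositol trisphosphate (IP3). IP3 opens the IP3 receptors, encoded by Itpr1, Itpr2 and Itpr3, which release calcium from the endoplasmic reticulum. Homer3 links mGluR1 to IP3 receptors in dendritic spines, and Car8 encodes a carbonic anhydrase-related protein without enzyme activity that binds the type 1 IP3 receptor and lowers its affinity for IP3.

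The lists differed in length more within a genotype than between genotypes. Replicates 1 and 2 held 7735 to 11409 peaks with median widths of 1065 to 1246 bp, and replicates 3 and 4 held 1266 to 5571 peaks with median widths of 132 to 148 bp. The files hold no read counts, so depth is unknown. Of 12 granule cell markers, a gene-end peak was found at 11 and 11 in the long knock-in lists (replicates 1 and 2) and at 11 and 10 in the long wild type lists. For the 12 Purkinje cell markers it was found at 3 and 5 for knock-in against 3 and 4 for wild type. No gene-end peak was found in any library at Pcp2, Pcp4, Pvalb, Ppp1r17, Skor2 or Gad1. Of 8 oligodendrocyte markers 1 had one in 3 of these 4 libraries, of 8 microglia markers 1 had one in knock-in replicate 1, and of 8 astrocyte and Bergmann glia and 8 liver genes none did. Purkinje cells are a small part of the tissue, so peaks at the 8 genes cannot be assigned to them. In such a mixture fewer cells of a type and less of the mark per cell cannot be told apart.

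Among the 8 genes, Gnaq and Plcb4 carried the highest-scoring peaks, at their starts and in both genotypes. Itpr1, Homer3 and Plcb3 had weaker gene-end peaks in knock-in libraries and none in wild type libraries. The peak counted for Plcb3 also lay over the start of a neighbouring gene, Ppp1r14b, and cannot be assigned to either. Itpr3 had a start peak in 1 wild type library and 2 of knock-in, and Itpr2 and Car8 had no peak in any list. No difference between genotypes in these gene-end peaks passed the test, which the library counts of Itpr1, Homer3 and Plcb3 could not have passed.

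**Figure D1:**
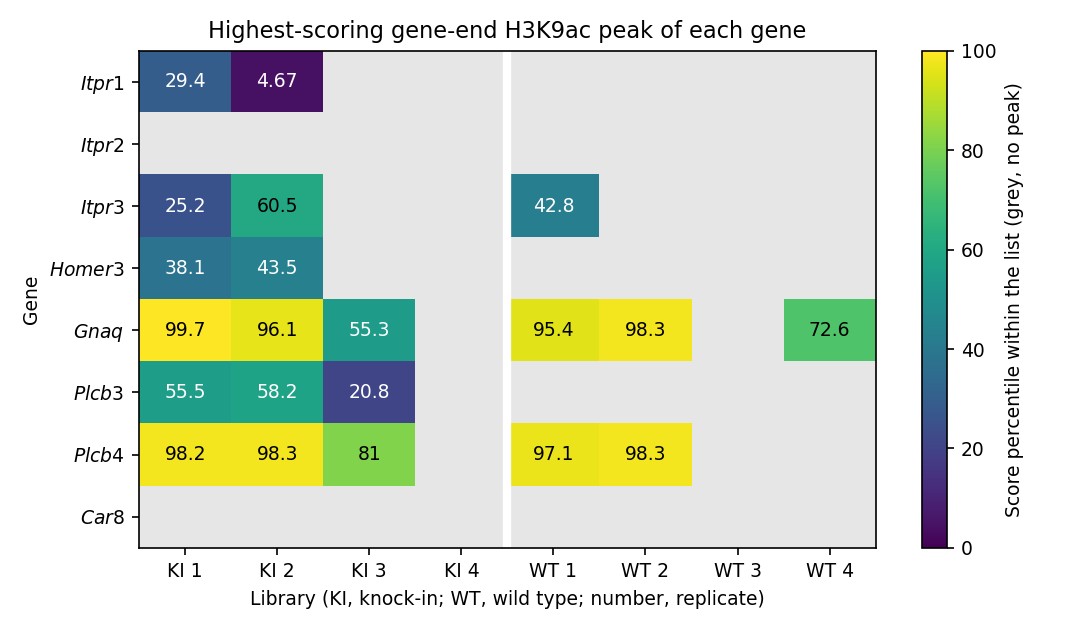
Each cell gives, for 1 gene (rows) in 1 library (columns), the percentile of the score of its highest-scoring gene-end peak among all peaks of that list, on a colour scale from 0 to 100, with grey for no peak. Gnaq and Plcb4 lie at 95.4 or above in replicates 1 and 2 of both genotypes, whereas Itpr1, Homer3 and Plcb3 are filled in knock-in columns only.

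Across the 8 genes, knock-in replicates 1 to 4 had gene-end peaks at 6, 6, 3 and 0 genes, and wild type replicates 1 to 4 at 3, 2, 0 and 1 genes. The mean was 3.75 ± 2.87 genes (SD, n = 4) in knock-in and 1.5 ± 1.29 genes (SD, n = 4) in wild type, and the ranges overlapped. Over all protein-coding genes the share with a gene-end peak was, in the same order, 39.1%, 36.2%, 10.4% and 0.896% for knock-in and 31.9%, 27.8%, 5.43% and 1.46% for wild type. At least 1 library had such a peak at 6 of the 8 genes, as at 45% of all genes. Knock-in libraries with a peak outnumbered wild type ones at 5 of the 8 genes and the reverse held at 0, against 21.6% and 5.23% of all protein-coding genes. Of genes with any gene-end peak, those shares were 48% and 11.6%. The counts over the 8 genes take in the Plcb3 peak, which also lay over the start of Ppp1r14b. The genes were chosen with earlier results of these data known, so no test over the set is given.

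The genotypes were compared gene by gene with a two-sided conditional exact test. Among the libraries with a peak at a gene it asks how many were knock-in, with odds of detection for each library fitted over all genes. It takes libraries as independent and does not measure the spread within a genotype. It called 0 of 9826 genes for gene-end peaks (0% called at an adjusted p of 0.05), and 90 genes, 0.916%, had an unadjusted p under 0.05. Fisher's exact test called 0. Of the 8 genes, 0 were called, and Plcb3 was the 1 gene with an unadjusted p under 0.05. For internal peaks it called 0 of 3996 genes (0%), and 20 genes, 0.501%, had an unadjusted p under 0.05, and Fisher's exact test called 0 here as well. With 4 libraries against 4, Fisher's exact test cannot give a p under 0.0286, and its smallest here was 0.143.

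Gnaq, the G protein step (chromosome 19, 16132684 to 16388520), had a gene-end peak in more libraries than any other of the 8 genes. In replicates 1 and 2 its start peak measured 2134 and 2441 bp for knock-in and 2182 and 1997 bp for wild type. The scores stood at percentiles 99.7 and 96.1 of the knock-in lists and 95.4 and 98.3 of the wild type lists. Thus in each long list the Gnaq start was among the top 5% of peaks, and the genotypes overlapped.

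Among the short lists, knock-in replicate 3 broke the Gnaq start into 3 narrow peaks of 158, 138 and 113 bp. Wild type replicate 4 had 1 peak of 122 bp, and knock-in replicate 4 and wild type replicate 3 had none. All 4 narrow peaks lay 395 to 929 bp downstream of the annotated start, inside the broad peak of every long list. Gnaq was thus found in 3 libraries of each genotype (conditional exact p = 1, adjusted p = 1). Its pattern over the 8 libraries was shared by 67 genes, 0.306% of all. A single internal peak of 998 bp lay 21.9 kb into the gene in knock-in replicate 1, at score percentile 24.1.

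Plcb4 encodes the phospholipase C beta isoform of a subset of Purkinje cells, which is largely complementary to the subset that uses Plcb3. Its start (chromosome 2, gene at 135658603 to 136014602) carried a peak in replicates 1 and 2 that measured 2086 and 1870 bp for knock-in and 1858 and 2229 bp for wild type. Score percentiles were 98.2 and 98.3 for knock-in against 97.1 and 98.3 for wild type, so the genotypes overlapped here too. Knock-in replicate 3 split the region into peaks of 191, 216 and 123 bp, and no other short list had a peak there. With 3 knock-in and 2 wild type libraries, the conditional exact p was 1 and the adjusted p 1. The same pattern of libraries was found at 1143 genes, 5.22% of all.

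The RefSeq promoter table places starts of Plcb4 at 2 sites, and only the first had a peak in these lists. The 250 bases before each start, from GRCm38.p6 (the assembly that mm10 names), are given with those of Gnaq to show how they differ. Capitals mark GGGCGG on either strand, the GC box bound by Sp1-like factors.
Gnaq (chr19:16132434-16132683, plus strand): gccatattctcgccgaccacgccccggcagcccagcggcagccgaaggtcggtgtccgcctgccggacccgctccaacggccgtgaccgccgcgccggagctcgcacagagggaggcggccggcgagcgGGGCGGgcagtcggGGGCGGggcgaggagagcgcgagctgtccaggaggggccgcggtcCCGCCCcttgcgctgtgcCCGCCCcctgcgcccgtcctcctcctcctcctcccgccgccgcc
Plcb4 first start (chr2:135659297-135659546, plus strand): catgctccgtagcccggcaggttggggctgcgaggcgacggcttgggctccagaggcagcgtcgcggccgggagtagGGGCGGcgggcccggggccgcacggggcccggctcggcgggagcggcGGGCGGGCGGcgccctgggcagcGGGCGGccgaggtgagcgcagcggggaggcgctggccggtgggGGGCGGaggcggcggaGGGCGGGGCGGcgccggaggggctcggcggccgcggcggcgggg
Plcb4 second start (chr2:135764588-135764837, plus strand): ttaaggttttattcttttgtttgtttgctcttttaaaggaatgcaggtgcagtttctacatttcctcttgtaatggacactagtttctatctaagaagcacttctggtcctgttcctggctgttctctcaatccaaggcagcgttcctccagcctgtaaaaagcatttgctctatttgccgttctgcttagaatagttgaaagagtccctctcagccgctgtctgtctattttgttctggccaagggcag
The Gnaq sequence held 37 CpG dinucleotides and 4 GC boxes, and the first Plcb4 start 42 CpG and 7 GC boxes, with overlapping matches counted separately. The second Plcb4 start held 3 CpG and no GC box. A peak covered part of the window from 250 bases before to 50 after the start in 5 libraries at the first start and in 0 libraries at the second, whose nearest peak in any list was 35099 bp away.

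**Figure D2:**
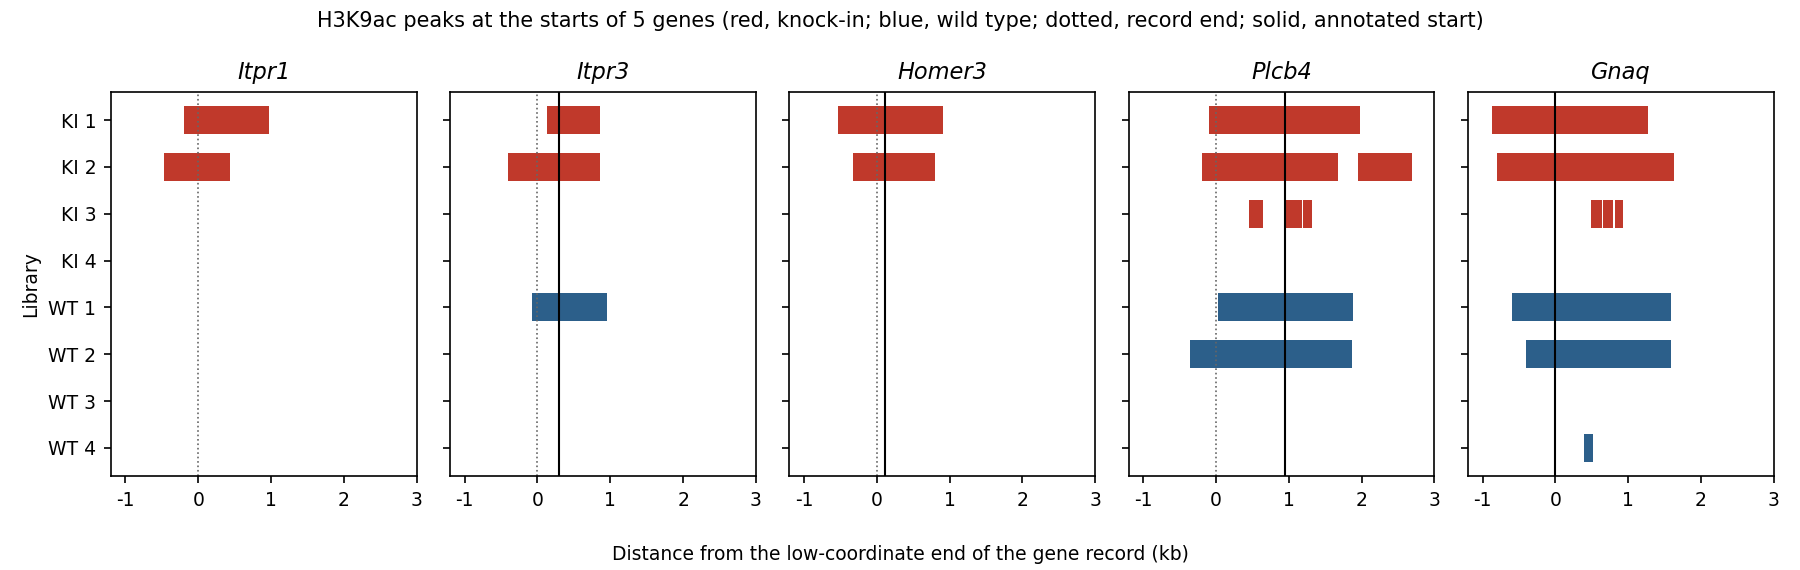
Bars are H3K9ac peaks of each library (rows; red, knock-in; blue, wild type) at the starts of 5 genes, against the distance in kb from the low-coordinate end of the gene record, with annotated starts as solid lines (none for Itpr1). Plcb4 and Gnaq have broad bars in replicates 1 and 2 of both genotypes with narrow peaks of the short lists inside them, and Itpr1 and Homer3 have bars in knock-in replicates 1 and 2 only.

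The narrow peaks of the short lists fell where the long lists had their broad peaks. Replicates 3 and 4 held 10 peaks at the 8 genes, 104 to 216 bp wide. Of these 9 overlapped a peak of a long list, and 7 lay within a peak of all 4 long lists.

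Plcb4 also held all but 1 of the 13 internal peaks of the 8 genes. Besides 2 internal peaks that adjoined the start region, 6 internal regions were spread over its 356 kb, of which 2 were found in both genotypes and 3 in at least 2 libraries. One, at 330 kb into the gene (chr2:135988251-135989233), was found in wild type replicate 1 and knock-in replicates 2 and 4. Another at 182 kb (chr2:135840570-135841324) was in knock-in replicate 2 and wild type replicate 1, and one at 259 kb (chr2:135917779-135918595) was in wild type replicates 1 and 2. The remaining 3, at 28.5, 141 and 322 kb, were each in 1 library.

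These internal peaks ranked far lower in the lists than the start peak. At 330 kb knock-in replicates 2 and 4 had score percentiles of 34.8 and 24.1, and wild type replicate 1 had 41.2. At 182 kb they were 43.5 and 48.7, and at 259 kb 6.48 and 24. By genotype, Plcb4 had internal peaks in 3 knock-in libraries and in 2 of wild type (conditional exact p = 1, adjusted p = 1). Within replicates 1 and 2 the order turned, with 1 knock-in and 2 wild type libraries and a conditional exact p of 0.395.

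**Figure D3:**
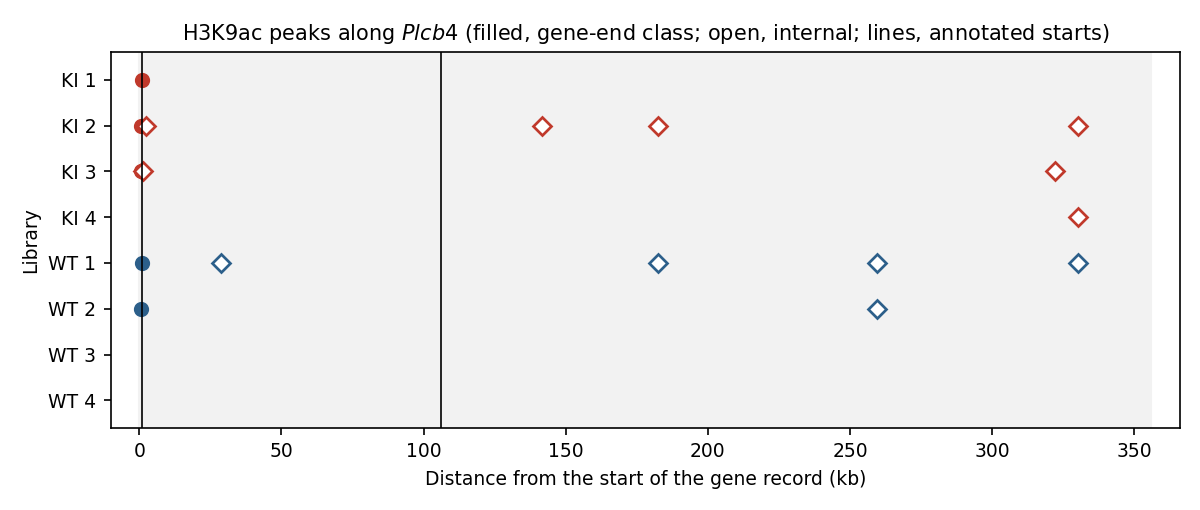
Each symbol is the centre of 1 H3K9ac peak along Plcb4, in kb from the start of the gene record, by library (filled circles, gene-end peaks; open diamonds, internal peaks; vertical lines, annotated starts). The start is marked in 5 libraries, the second annotated start has no symbol, and internal symbols of both genotypes line up at 182 and 330 kb.

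Itpr1 and Itpr2 had no peak inside. Itpr1 spans 338 kb and Itpr2 394 kb, and neither had an internal peak in any of the 8 lists, whereas 70% of the 990 protein-coding genes of 200 kb or more had one in at least 1 library. Gnaq at 256 kb and Plcb4 at 356 kb had one. Internal peaks thus occurred at 2 of the 8 genes, against 18.4% of all genes. Both genes had them in more knock-in than wild type libraries, as had 7.47% of all genes, with 5.68% the other way. Of genes with any internal peak those shares were 40.6% and 30.9%.

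Plcb3 encodes the other phospholipase C beta isoform of Purkinje cells. Its gene-end peak (chromosome 19, gene at 6953708 to 6975006) was absent from the wild type lists and present in knock-in replicates 1, 2 and 3. It was 1186, 1575 and 152 bp wide, at score percentiles 55.5, 58.2 and 20.8. The conditional exact p was 0.00948 and the adjusted p 1. Any gene with a peak in 3 knock-in libraries and 0 of wild type gets this p. With 9826 genes tested and only 90 at an unadjusted p under 0.05, Plcb3 could not have passed. Of the 9826 tested genes, 24 (0.244%) had an unadjusted p under 0.05 with more knock-in libraries, and 23 genes, 0.105% of all, had this exact pattern of libraries. Without knock-in replicate 3 the conditional exact p was 0.504, and within replicates 1 and 2 it was 0.509.

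The place of that peak is shared with another gene. Plcb3 is on the minus strand, so the high-coordinate end of its record is the upstream end. That end lies 42 bp from the start of Ppp1r14b, a gene for an inhibitor of protein phosphatase 1. The peaks in all 3 libraries covered it and overlapped the end windows of both genes. The promoter table gives 1 start of Plcb3, which lies 5192 bp inside the record, and no library had a peak over that start. The nearest peak of any list was 4527 bp from it. The sequences before the 2 starts are given because the peak covers one and not the other.
Plcb3 (chr19:6969815-6970064, minus strand): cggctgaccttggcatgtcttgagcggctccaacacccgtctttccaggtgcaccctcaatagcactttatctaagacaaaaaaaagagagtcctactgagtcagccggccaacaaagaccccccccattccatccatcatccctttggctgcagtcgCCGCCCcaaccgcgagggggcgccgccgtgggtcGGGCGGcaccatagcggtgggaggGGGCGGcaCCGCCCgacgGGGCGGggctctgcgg
Ppp1r14b (chr19:6974798-6975047, plus strand): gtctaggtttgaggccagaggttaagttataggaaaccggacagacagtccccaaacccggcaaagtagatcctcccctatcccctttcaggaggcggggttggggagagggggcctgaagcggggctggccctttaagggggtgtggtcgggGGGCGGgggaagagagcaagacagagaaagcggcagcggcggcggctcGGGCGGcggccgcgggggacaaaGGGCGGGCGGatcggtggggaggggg
Both are rich in GC boxes, marked again in capitals. The Plcb3 sequence held 20 CpG and 5 GC boxes and had a peak in 0 libraries, and the Ppp1r14b sequence held 18 CpG and 4 GC boxes and had a peak in 3. The lists alone do not say to which gene the acetylation belongs.

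In the flanks of Plcb3, knock-in replicate 2 had a peak in the end window of Bad (chr19:6950263-6951191, score percentile 1.19) and knock-in replicate 1 one at the end of Fkbp2 (chr19:6979629-6980766, score percentile 25.5). The latter began 4623 bp beyond the gene record and was just inside the 5 kb limit. Wild type replicate 1 had a peak at chr19:6980125-6981032, score percentile 19.2, which began 5.12 kb beyond it and was just outside. These peaks overlap each other, so the count of flank peaks by genotype there turns on the limit.

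**Figure D4:**
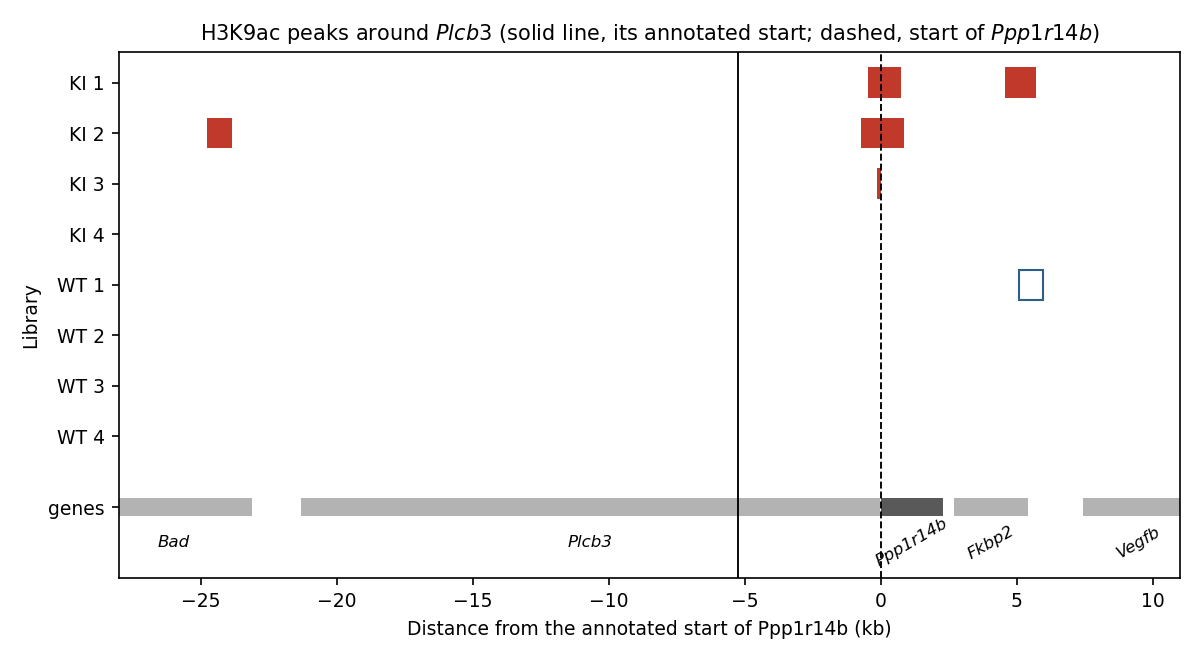
Bars are H3K9ac peaks by library (red, knock-in; blue outline, a wild type peak just outside the 5 kb limit) against the distance in kb from the annotated start of Ppp1r14b, with neighbouring gene records as grey bars (Ppp1r14b darker; a further record that overlaps Fkbp2 is not drawn). The peaks of 3 knock-in libraries sit on the dashed line at the start of Ppp1r14b, and the solid line at the annotated start of Plcb3 has none.

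Itpr1 encodes the main IP3 receptor of Purkinje cells, where it is among the most abundant membrane proteins of the endoplasmic reticulum. Its peak lay at the low-coordinate end of the gene (chromosome 6, 108213083 to 108551116). It was 1167 bp wide in knock-in replicate 1 and 905 bp in knock-in replicate 2, at score percentiles 29.4 and 4.67, and no other list had a peak within 5 kb of the gene. In wild type replicate 1 the nearest peak to the gene was 27 kb away and in wild type replicate 2 it was 108 kb away. The conditional exact p was 0.501 and the adjusted p 1. In knock-in replicate 2 the peak was thus close to the bottom of the list.

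Homer3 had the same pattern with somewhat stronger peaks. Its start peak (chromosome 8, gene at 70282880 to 70294361) was 1444 bp wide in knock-in replicate 1 and 1136 bp in knock-in replicate 2, at score percentiles 38.1 and 43.5, and no wild type list had one. The conditional exact p was again 0.501 and the adjusted p 1. Any gene with a peak in 2 knock-in libraries and 0 of wild type gets this p, so Itpr1 and Homer3 could not have passed. This pattern, knock-in replicates 1 and 2 alone, was held by 706 genes, 3.23% of all, so it is common in these lists. No other gene's end window was touched by the peaks of Itpr1 or Homer3.

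Itpr3 is the IP3 receptor best known from taste and secretory cells, and Itpr2 that of astrocytes and heart muscle. The start peak of Itpr3 (chromosome 17, gene at 27057002 to 27122223) measured 728 bp in knock-in replicate 1, 1267 bp in knock-in replicate 2 and 1031 bp in wild type replicate 1, at score percentiles 25.2, 60.5 and 42.8. The wild type value lay between those of knock-in, and the conditional exact p was 1 and the adjusted p 1. A second peak of 505 bp in knock-in replicate 1 lay near the far end of the gene and also touched the end window of Uqcc2. Itpr2 (chromosome 6, 146108299 to 146502258) had no peak within 5 kb, and the nearest in any list was 74.8 kb away.

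The bases upstream of Homer3, Itpr3 and Itpr2 are given to set a start without a peak beside 2 with one, with GC boxes in capitals.
Homer3 (chr8:70282749-70282998, plus strand): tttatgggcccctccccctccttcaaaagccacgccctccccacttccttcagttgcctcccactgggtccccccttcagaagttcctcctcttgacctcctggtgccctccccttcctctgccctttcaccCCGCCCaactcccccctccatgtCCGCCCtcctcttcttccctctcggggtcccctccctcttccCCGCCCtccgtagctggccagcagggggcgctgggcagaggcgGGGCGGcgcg
Itpr3 (chr17:27057054-27057303, plus strand): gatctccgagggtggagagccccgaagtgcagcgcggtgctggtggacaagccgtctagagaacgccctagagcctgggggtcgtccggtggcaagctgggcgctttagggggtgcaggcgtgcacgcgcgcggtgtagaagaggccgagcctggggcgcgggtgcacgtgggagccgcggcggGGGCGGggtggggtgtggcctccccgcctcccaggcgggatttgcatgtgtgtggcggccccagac
Itpr2 (chr6:146502224-146502473, minus strand): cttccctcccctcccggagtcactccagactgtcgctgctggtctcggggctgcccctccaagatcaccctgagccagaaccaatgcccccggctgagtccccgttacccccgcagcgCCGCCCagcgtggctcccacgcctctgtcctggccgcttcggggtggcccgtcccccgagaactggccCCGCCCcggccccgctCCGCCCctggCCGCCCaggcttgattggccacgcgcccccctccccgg
Homer3 held 11 CpG and 4 GC boxes, Itpr3 25 CpG and 1 GC box, and Itpr2 22 CpG and 4 GC boxes. Homer3, with the fewest CpG of these 3, had a peak over its start in 2 libraries, Itpr3 in 3 and Itpr2 in 0.

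Over the 21263 annotated starts of protein-coding genes in the table, the share with a peak rose with the CpG count of the 250 bases upstream. In knock-in replicate 1 it was 3.28% with 0 to 4 CpG, 46% with 10 to 14, 68.9% with 20 to 24 and 91.9% with 30 or more. In wild type replicate 1 the same bins gave 2.26%, 35%, 56.3% and 82.2%. Gnaq and the first start of Plcb4 were in the highest bin, where some library marked 93.5% of starts, and the second start of Plcb4 was in the lowest, where 4.37% did. Itpr2 and Plcb3 were in the bin of 20 to 24 CpG, of whose starts 77.2% were marked by some library, but these 2 were not.

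**Figure D5:**
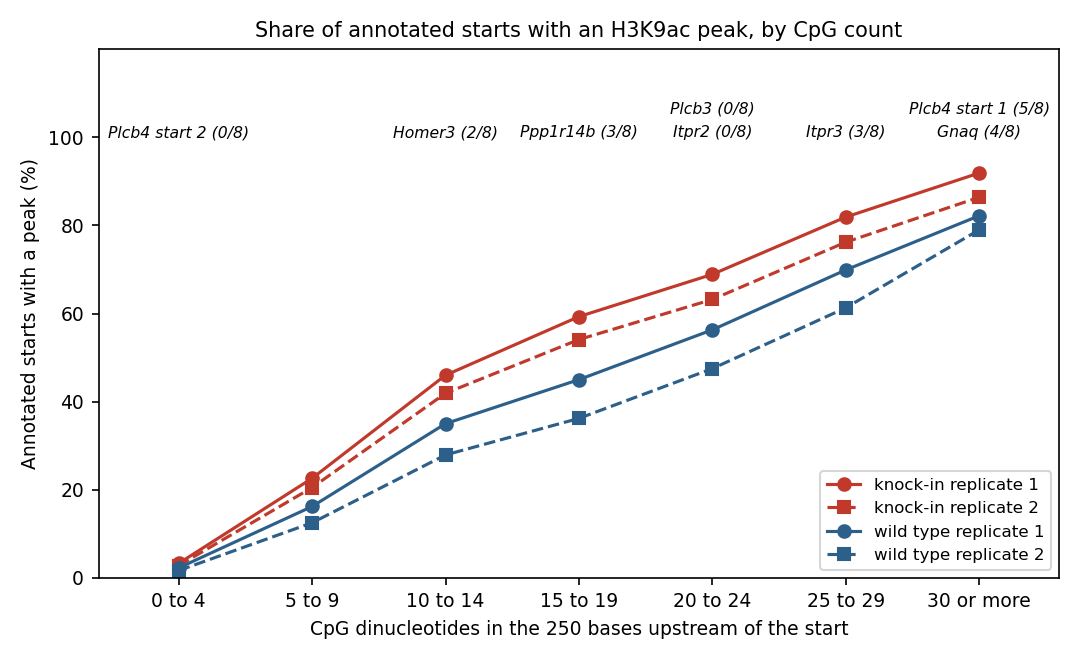
Lines give the percentage of annotated starts with an H3K9ac peak in each of the 4 long lists, by the number of CpG dinucleotides in the 250 bases upstream. Names above each bin give the pathway starts and Ppp1r14b with the number of the 8 libraries that had a peak there. Each line rises from at most 3.28% in the lowest bin to at least 79% in the highest, and Itpr2 and Plcb3 have no peak in a bin where 77.2% of starts were marked by some library.

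GC boxes were found before 42.6% of all these starts and before 6 of the 7 starts of the pathway genes in the table. TATAAA was found before 11.6% of starts and before none of these 7. CCAAT, in 35.4% of starts, matched at Itpr2 alone among them, AGGTCA, in 12.8%, at Homer3 and Plcb3, and CACGTG, in 6.63%, at Itpr3. Both strands were searched. The matches describe the letters and do not show binding. Itpr1 and Car8 are not in the promoter table.

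Car8 (chromosome 4, 8141493 to 8239041), the modulator of the type 1 IP3 receptor, had no peak in any list within 5 kb. The nearest was 145 kb away, in wild type replicate 3, and in replicates 1 and 2 of both genotypes it was 296 kb away. A gene without a gene-end peak in any list was the commonest case, at 12036 genes, 55% of all.

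Peak length in each gene and its 5 kb flanks was compared as well. A two-sided exact permutation test over the 70 assignments of libraries, which cannot give a p below 0.0286, called 0 of 12329 genes (0%), with 2 genes, 0.0162%, at an unadjusted p under 0.05. With 4 libraries a group and this many genes, no gene could have passed the adjustment unless a large share of all genes had reached that smallest p, so these 0 calls say nothing about the genes. Plcb4 had 1947 ± 2140 bp (SD, n = 4) in knock-in and 1837 ± 2228 bp (SD, n = 4) in wild type. The exact permutation p was 0.914. Gnaq had 1496 ± 1526 bp (SD, n = 4) in knock-in, and in wild type 1075 ± 1175 bp (SD, n = 4). Its exact permutation p was 0.571. Plcb3 had 1055 ± 1195 bp (SD, n = 4) in knock-in and 0 bp in each wild type library, with an exact permutation p of 0.143. Counting only bases inside the gene record of Plcb3 leaves out the flank peaks and the part of the gene-end peak that runs past the record over Ppp1r14b, and gave a knock-in mean of 291 bp.

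Itpr1, Homer3 and Plcb3, 3 of the 8 genes, had a gene-end peak in both long knock-in lists and in neither long wild type list, as had 3.37% of all protein-coding genes, against 0.178% with the reverse pattern. For Plcb3 this is the peak that also lay over the start of Ppp1r14b. The long knock-in lists covered more gene ends than the long wild type lists. When each was reduced to its 7735 highest-scoring peaks, the length of the shortest, Homer3 and Plcb3 stayed in both knock-in lists and Itpr1 stayed in knock-in replicate 1 only. Itpr3 then stayed in knock-in replicate 2 and wild type replicate 1. Gene-end peaks were then left at 5 and 5 of the 8 genes for knock-in against 3 and 2 for wild type, and at 31.8% and 29.7% of all genes against 26.2% and 27.8%.

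Of 30 further genes of mGluR1 and IP3 signalling, 23 and 23 had a gene-end peak in replicates 1 and 2 of knock-in and 21 and 19 in those of wild type. Counted over the 8 libraries, 7 of the 30 had more knock-in libraries with a peak, 3 had fewer, 14 had as many and 6 had no peak. Of all protein-coding genes, 21.6% had more and 5.23% had fewer. None of the 30 passed the test at an adjusted p of 0.05. The median difference in the number of libraries was 0 for these 30, 1 for the 8 genes and 0 over all genes. Internal peaks were in more knock-in libraries for 4 of the 30 and in more wild type libraries for 11, against 7.47% and 5.68% of all genes, and 0 passed the test. An internal peak in any library was found at 19 of the 30, 63.3%, but at 18.4% of all genes. Among all genes with any internal peak, 40.6% had more knock-in and 30.9% more wild type libraries.

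By role, all 11 kinases, phosphatases and lipid enzymes had a gene-end peak in each long list but that of wild type replicate 2, where 8 did. Of 7 receptors and partners, 5 had one in each of these 4 libraries. Of 5 G proteins and phospholipases, 3 had one in each knock-in list and 3 and 2 in wild type. Of 7 calcium channels, pumps and buffers it was 4 and 4 against 2 and 4.

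Among the further pathway genes found in most libraries were Atp2a2, the calcium pump of the endoplasmic reticulum, in 4 wild type libraries and 3 of knock-in, and the scaffold gene Homer1, in 3 of each. Itpkb, an IP3 kinase, was in 2 wild type libraries and 3 of knock-in.

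Genes whose gene-end score percentiles were most like those of each member over the 8 libraries were found by the root mean square difference, in percentile points. For Itpr1 they were Klf2 and Ank3, with differences of 0.491 and 0.658, and for Homer3 Nmi and Rassf3, with 0.565 and 0.605. For Itpr3 they were Ppp1r8 and Ano6, with 1.53 and 1.79, and for Plcb4 Negr1 and Hmgb1, with 1.88 and 2.89. Plcb3 and Gnaq had no such close match. For Plcb3 the nearest were Cnpy4 and Mblac1 at 5.06 each, with the same percentiles as each other in every library, and for Gnaq Tbkbp1, at 7.65, was among the nearest 2. This is a description over 8 libraries that share their list lengths, with no test.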

How the data were processed

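H3K9ac ChIP-seq peak lists of 8 cerebellar libraries were used. Bowtie2 and mm10 are named in the submitters' processing notes, and peaks were called with MACS in Galaxy, 1 list per library, per the file headers. Of the version, settings and input control nothing is given in the sources used here. Each peak carries a deposited score on an unstated scale, from which only ranks inside 1 list were taken. There are no read counts.

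Gene records came from RefSeq GRCm38.p6, and promoter sequences, present for 6 of the 8 genes, from the same build. A peak was gene-end if it overlapped by 1 bp or more the 1 kb on either side of a gene end, internal if it lay inside the gene and touched no such window, and flank if it lay within 5 kb. Of all peaks, 15 had a start below 0, set to 0. The conditional exact test used library odds from a Rasch model fitted over all genes, on genes with a peak in 1 to 7 libraries, with Benjamini-Hochberg adjustment at 0.05 (Python 3.11.15, scipy 1.17.1). In simulated data, 200 genes had a peak in all 4 libraries of 1 genotype and in none of the other. The test called 100% of them for gene-end peaks among 9826 genes and 0% for internal peaks among 3996, so 0 internal calls set no limit. In the real lists no gene had a peak in all 4 libraries of 1 genotype and in none of the other. Peaks in fewer libraries of 1 genotype, as at Itpr1, Homer3 and Plcb3, were not simulated. The library counts of these genes could not have passed the adjustment, so 0 gene-end calls set no limit for such patterns.

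The genes and lists were chosen with earlier results of these data known. Named are all 8 genes, pathway genes differing by 2 or more libraries, the 4 found in most libraries, the 2 most similar genes to each member found in at least 2 libraries, and neighbours that share a peak. Some genes that this rule names are not reported here. Alternatives were windows of 500 bp and 3 kb, a larger minimum overlap, higher scores, equal lists, Fisher's exact test, a replicate block, annotated starts and leaving out libraries.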

Additional observations from a re-analysis of the deposited data

Results flagged for a closer look

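The peak length of Itpr3 and its 5 kb flanks in wild type stood out because 1 library was far from the other 3. It was 1031 bp in wild type replicate 1 and 0 bp in wild type replicates 2, 3 and 4. This was the 1 such case among 11 groups of 4 libraries. A group with a single library above 0 always stands out in this way, so the rate of about 1 in 20 groups that chance gives for other values does not apply, and the case shows only that 1 wild type library had the peak.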

How the results depend on the processing

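The conditional exact test called 0 genes for gene-end and for internal peaks under all alternatives but one: without wild type replicate 2 it called 1 gene, Lrrc74b, which is not in this pathway. Leaving out each library gave 0 to 1 gene-end calls. Internal peaks of Plcb4 reversed within replicates 1 and 2, with p = 0.395 by the conditional exact test; the cause was not tested. With all 8 lists reduced to the 1266 highest-scoring peaks, the length of the shortest, Gnaq had gene-end peaks in 2 knock-in libraries against 3 of wild type and Plcb4 also kept some, while Itpr1, Itpr3, Homer3 and Plcb3 had none left to test. The unadjusted conditional exact p of Plcb3 ranged from 0.00676 with a 500 bp window to 1 with the replicate block, and its adjusted p was 1 wherever it could be tested. With annotated starts only it had no peak to test either. The mean number of the 8 genes with a gene-end peak was 3 to 5 in knock-in and 1 to 2 in wild type when a library of that genotype was left out. With only peaks at or above the median score of their list it was 2.25 and 1.25. Within replicates 1 and 2, an alternative chosen after seeing the data, it was 6 and 2.5, and 5 and 2.5 with these 4 lists at 7735 peaks each. The replicate block gave 0 calls for gene-end and 0 for internal peaks. The labels give same-numbered libraries only a number in common, though in both genotypes replicates 1 and 2 had long lists and replicates 3 and 4 short ones. Deviations of same-numbered libraries correlated at 0.0502 to 0.405, and 5 of 8 libraries correlated best with their own number. What else they share was not tested. The peak lists limit what can be seen, since a weak peak under the caller's threshold and no acetylation look alike.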
